A study of Rattus with 4 samples.

Results

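The 10 genes of glycolysis described here were followed through an RNA immunoprecipitation experiment in cultured rat cardiac cells: Hk1, Gpi, Pfkp, Aldoa, Tpi1, Gapdh, Pgk1, Eno1, Pkm and Ldha. They were chosen by name and make up 10 of the 13731 genes listed in the deposited count table. The study sequenced RNA recovered with an antibody to NONO, a nuclear RNA- and DNA-binding protein of paraspeckles and splicing, beside the input RNA. There were 2 input libraries, labelled as transfected with an empty vector and made with no antibody, and 2 NONO IP libraries, labelled as transfected with NONO siRNA and made with an anti-NONO antibody. Precipitation and siRNA therefore cannot be told apart by these labels, and no library made with a control antibody was analysed here. The growth protocol names a commercial rat cardiac fibroblast line and the titles name H9C2, a rat heart myoblast line. Nothing in the labels says that replicates came from separate cultures, so p-values measure only the spread between these libraries, which may be technical.

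Glycolysis is the cytosolic pathway that splits glucose into pyruvate and yields ATP without oxygen. An upper stretch, from hexokinase to triosephosphate isomerase, spends ATP to make triose phosphates, and a lower stretch, from glyceraldehyde-3-phosphate dehydrogenase to pyruvate kinase, earns it back. Lactate dehydrogenase then turns pyruvate into lactate and restores NAD+. The enzymes are abundant in most cultured cells, and fibroblasts that become matrix-producing myofibroblasts are known to draw on the pathway more heavily.

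The libraries were shallow. Gene counts summed to between 238776 and 279410 per library, and protein-coding genes held between 138114 and 179260 of them. A single read corresponded to between 3.39 and 5.29 CPM. CPM here is counts scaled to a common library total, taken over the genes that passed a filter on low counts, after TMM scaling. TMM is edgeR's correction of library totals for composition. Nono itself (chromosome X) counted 21 and 9 input reads against 3 and 3 after precipitation. The 9 fibroblast markers present, type I and III collagen among them, held 38075 input and 39711 NONO IP reads, or 100170 and 98586 CPM against 68978 and 69086 CPM after scaling, and 5 of the 7 tested were called lower and 1 higher. By the same 2 read sums, 8 cardiomyocyte genes held 123 and 165, 2 skeletal myoblast genes 21 and 7, 7 smooth muscle genes 1777 and 1129, 2 endothelial genes 2 and 3, and 5 macrophage and leukocyte genes 27 and 4. Of the tested genes, 2 of 3 cardiomyocyte genes and 6 of 6 smooth muscle genes were called lower, where 26.9% of all genes tested were. The cardiomyocyte genes called lower, Myh6 (10 and 11 reads against 8 and 5) and Myh7 (10 and 10 against 2 and 2), passed the count filter through their input reads. The other, Tnnt2, counted 16 and 39 reads against 64 and 59 and did not pass (log2 fold change 0.57, edgeR adjusted p = 0.106). With the length offset Tnnt2 (1.54, edgeR adjusted p = 0.00028) and the smooth muscle gene Tagln (0.46, edgeR adjusted p = 0.0127) were called higher. The part of other cell types in the results was not tested. The myoblast regulators Myod1 and Myog were not among the listed genes, and Tcf21, a fibroblast factor, counted 2 and 3 input reads. In bulk libraries such as these, fewer cells of a type and less RNA per cell cannot be told apart, nor can either be told from precipitation or siRNA.

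In TMM-scaled CPM, both NONO IP libraries lay below both inputs for each of the 10 glycolytic genes, as they did for 37.3% of all genes tested. With library totals over all listed genes and no TMM scaling, Pfkp was the exception, with inputs at 44.1 and 33.5 CPM and NONO IP libraries at 32.2 and 41.7 CPM. Together they held 307 and 281 input reads against 119 and 147 after precipitation. As a share of protein-coding reads this was 0.210% ± 0.00956 in the inputs and 0.0764% ± 0.0142 in the NONO IP (SD, n = 2), a ratio of 2.75. The upper stretch, Hk1 to Tpi1, went from 0.0825% ± 0.0112 to 0.0445% ± 0.00693, a ratio of 1.85. The lower stretch with Ldha went from 0.128% ± 0.00168 to 0.0319% ± 0.00727, a ratio of 4.001. Neither library of one group reached the range of the other in either stretch; the difference between the ratios was not tested.

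**Figure D1:**
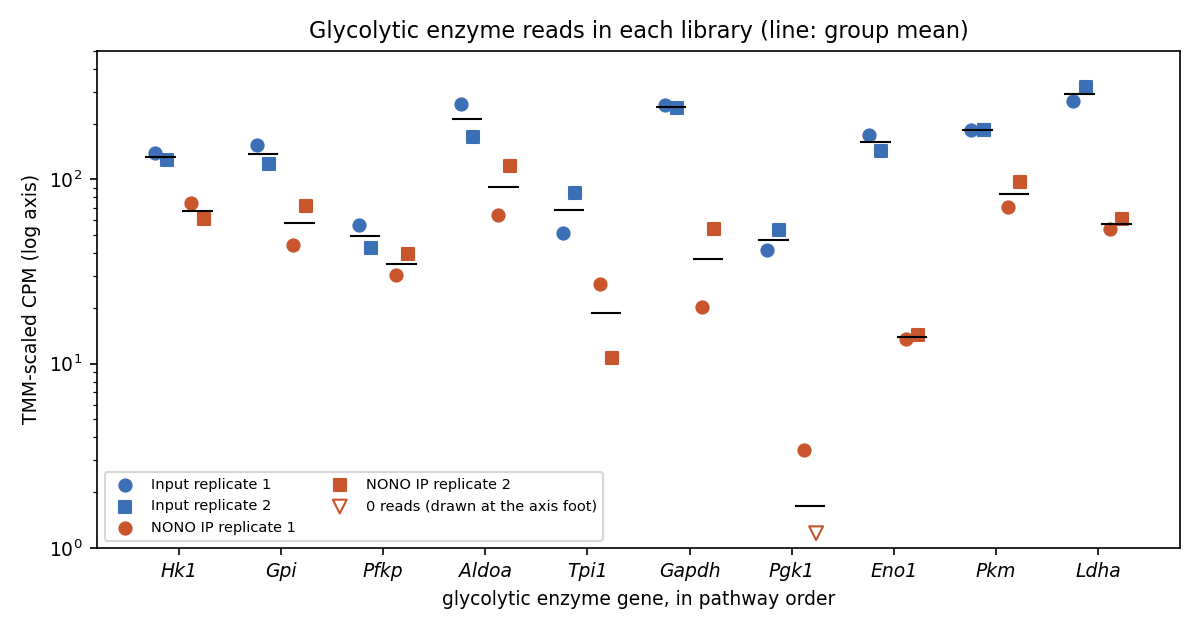
TMM-scaled CPM (log axis) of the 10 glycolytic enzyme genes in pathway order, with 1 point per library (circles replicate 1, squares replicate 2, blue input, orange NONO IP) and a line at each group mean of 2 libraries. Every orange point lies below both blue points of its gene, by the widest margins for Eno1 and Pgk1; the open triangle is the library with 0 Pgk1 reads, drawn at the foot of the axis.

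Of the 10 genes, 9 passed the filter on low counts and were tested with edgeR's quasi-likelihood test over 2920 genes, where a negative log2 fold change means less in the NONO IP. Of these 9 genes, 8 fell and 1, Pfkp, did not pass at an adjusted p under 0.05. Their median log2 fold change was −1.26, against 0.02 over all genes tested. Over all genes tested, 26.9% were called lower, and 37.3% had both NONO IP libraries below both inputs; for the protein-coding genes tested the shares were 27.7% and 38.6%. Tpi1, Gapdh and Eno1 passed the count filter through their input reads, so the count and the median describe the genes and are not separate support. Among the 1729 other coding genes with at least 23 input reads, 42.7% were called lower and 57.3% had groups that did not overlap in this direction. The median log2 fold change of these 1729 genes was −0.57.

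The upper stretch begins with Hk1, hexokinase 1, which phosphorylates glucose. Hk1 counted 27 and 24 reads at input against 22 and 17 after precipitation, or 133 ± 8.55 CPM against 67.6 ± 9.73 CPM (SD, n = 2). The groups did not overlap, and Hk1 fell (log2 fold change −0.97, SE 0.30, edgeR adjusted p = 0.0113). The Hk1 call had the highest adjusted p of the 8, and it ended with library totals (−0.54, adjusted p = 0.136), with protein-coding totals (−0.71, adjusted p = 0.0539), with the DESeq2 Wald test (−0.98, adjusted p = 0.152), with no count filter (−0.75, adjusted p = 0.141) and without NONO IP replicate 2 (−0.78, adjusted p = 0.0828).

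Gpi, glucose-6-phosphate isomerase, converts glucose-6-phosphate to fructose-6-phosphate. Its reads numbered 30 and 23 at input against 13 and 20 after precipitation, and it fell from 138 ± 23.2 to 57.7 ± 19.4 CPM (log2 fold change −1.26, SE 0.33, edgeR adjusted p = 0.00348). Without NONO IP replicate 1, the lower of the 2, the value was −0.89 and the adjusted p was 0.0595. Pfkp, the platelet form of phosphofructokinase, which catalyses the committed step, had the fewest input reads among the 9 tested genes, with 11 and 8 against 9 and 11. After TMM scaling the Pfkp groups did not overlap, at 56.7 and 42.3 CPM for input and 30.5 and 39.3 CPM for NONO IP. The Pfkp log2 fold change of −0.51 (SE 0.43, 95% interval −1.40 to 0.39, edgeR adjusted p = 0.343) did not pass, and the interval leaves room for a fall as large as that of Gpi.

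Aldoa, aldolase A, cleaves fructose-1,6-bisphosphate into triose phosphates. Its reads were uneven in both groups, 50 and 32 against 19 and 33, or 213 ± 62.4 against 91.1 ± 37.9 CPM (SD, n = 2). Aldoa fell, by 1.24 on the log2 scale (SE 0.30, edgeR adjusted p = 0.00232). Tpi1, triosephosphate isomerase, interconverts the 2 triose phosphates and was among the least sampled genes, with 10 and 16 reads against 8 and 3, or 68.1 ± 23.4 against 18.9 ± 11.6 CPM. The fall of Tpi1 was −1.80 (SE 0.49, edgeR adjusted p = 0.00463). The Tpi1 call ended without Input replicate 2 (−1.47, adjusted p = 0.237) and without NONO IP replicate 2 (−1.25, adjusted p = 0.0762), and the value was −2.54 without NONO IP replicate 1.

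The lower stretch opens with Gapdh, which oxidises glyceraldehyde-3-phosphate and is often used as a reference transcript for normalisation. Gapdh counted 49 and 46 input reads against 6 and 15 after precipitation. The level went from 248 ± 6.36 to 36.95 ± 23.5 CPM, so the inputs were nearly equal and the NONO IP libraries were not. The fall was −2.75 (SE 0.33, edgeR adjusted p = 2.44e-06). It passed in every alternative in which Gapdh was tested, but its size depended on which NONO IP library was kept, at −2.14 without replicate 1 and −3.52 without replicate 2.

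Pgk1, phosphoglycerate kinase 1, makes the first ATP of the pathway and lies on chromosome X. Its reads numbered 8 and 10 against 1 and 0, too few for the count filter. Per scaled library this was a 27.0-fold lower level in the NONO IP, with an exact conditional 95% interval of the ratio from 4.27 to 1126. This interval, from pooled reads, covers counting error only and leaves out the spread between libraries. It takes reads as independent molecules, and reads carry no molecular identifiers to show this. In a fit over all 13731 genes, where 4.73% were called lower, the adjusted p of Pgk1 was 0.000391 by edgeR. The call ended without NONO IP replicate 1 (fitted value −6.34, adjusted p = 0.270), without NONO IP replicate 2 (−3.38, adjusted p = 0.252) and with DESeq2 size factors (adjusted p = 0.0759).

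Eno1, enolase 1, turns 2-phosphoglycerate into phosphoenolpyruvate. It showed the largest fall of the 9 tested genes, from 34 and 27 reads to 4 and 4, or from 159 ± 22.8 to 13.9 ± 0.527 CPM (SD, n = 2). The log2 fold change of Eno1 was −3.47 (SE 0.41, edgeR adjusted p = 2.07e-06). Both NONO IP libraries gave almost the same level, but each rests on 4 reads, so this closeness says little about precision. Leaving out any library kept the value between −3.67 and −3.35.

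Pkm, pyruvate kinase M, forms pyruvate and is spliced into M1 and M2 forms by a choice of exons; the gene counts do not separate these forms. Its reads numbered 36 and 35 against 21 and 27, or 185 ± 0.169 against 83.8 ± 17.9 CPM. Pkm fell by 1.15 on the log2 scale (SE 0.27, edgeR adjusted p = 0.00179), a call that held in every alternative in which the gene was tested. Ldha, lactate dehydrogenase A, had the most input reads of the 10, 52 and 60, against 16 and 17 in the NONO IP. The Ldha level of 293 ± 35.1 CPM in the inputs and 57.5 ± 4.64 CPM in the NONO IP gave a fall of −2.34 (SE 0.27, edgeR adjusted p = 1.15e-06).

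The falls were not of one size. In order, the log2 fold changes ran from Eno1 through Gapdh, Ldha, Tpi1, Gpi, Aldoa, Pkm and Hk1 to Pfkp. For none of the 8 pairs next to each other in this order were the 95% intervals apart, but 13 of all 36 pairs had intervals that did not overlap. Each of these 13 pairs set Eno1, Gapdh or Ldha against one of Gpi, Aldoa, Pkm, Hk1 and Pfkp. Eno1 (−4.34 to −2.60) and Gapdh (−3.44 to −2.05) lay apart from all 5 of those genes, whereas the interval of Tpi1 (−2.82 to −0.78) overlapped with all others. Of 20 replicate pairs compared by an exact binomial test, which takes reads as independent molecules and has little power at these counts, 2 had an unadjusted p under 0.05, Aldoa (0.0371) and Gapdh (0.0479) in the NONO IP, and none after adjustment (lowest adjusted p = 0.479).

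Levels per length, as RPKM, put the genes in another order in each group. In the inputs Gapdh was highest, at 88.2 ± 1.69 RPKM, followed by Ldha (79.4 ± 10.03), Aldoa (58.7 ± 16.8) and Eno1 (39.7 ± 5.44), while Pfkp was lowest at 3.97 ± 0.792 (SD, n = 2). In the NONO IP Aldoa was highest, at 15.98 ± 7.09 RPKM. Ldha (9.86 ± 1.10), Gpi (9.30 ± 3.39), Pkm (9.13 ± 2.23) and Gapdh (8.395 ± 5.55) came next, and their ranges overlapped from each to the next. Eno1 stood at 2.20 ± 0.156 RPKM, 8th of the 10, after a 4th place in the inputs; Gapdh moved from 1st to 5th. The deposited RPKM values are scaled to a total that was 2.38-fold larger in the NONO IP. Their fall between groups is therefore larger than that of the scaled counts, and levels in RPKM are compared only within a group. The alternatives on RPKM scales, given further below, do compare the groups and carry this difference in totals.

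Glycolytic transcripts are short, and short transcripts were lower in the NONO IP in general. Gene length was read from the ratio of count to RPKM and is given relative to the median tested coding gene. Of the 10 genes, 9 were shorter than that median, from 0.293 for Gapdh and 0.296 for Tpi1 through 0.607 for Pkm to 0.882 for Hk1, and Pfkp was longer at 1.30. Of other coding genes with at least 23 input reads, 64.5% of the 372 with a relative length up to 0.5 were called lower (median log2 fold change −1.08), 41.9% of 535 between 0.5 and 1 (−0.58), 35.7% of 566 between 1 and 2 (−0.33) and 28.5% of 256 above 2 (0.10). Of the 10 members, 7 fell in the shortest class. Across the 9 tested members, length and log2 fold change had a Spearman rho of 0.67, and across the 1729 other genes it was 0.34; genes within the same 4 libraries are not independent replicates.

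**Figure D2:**
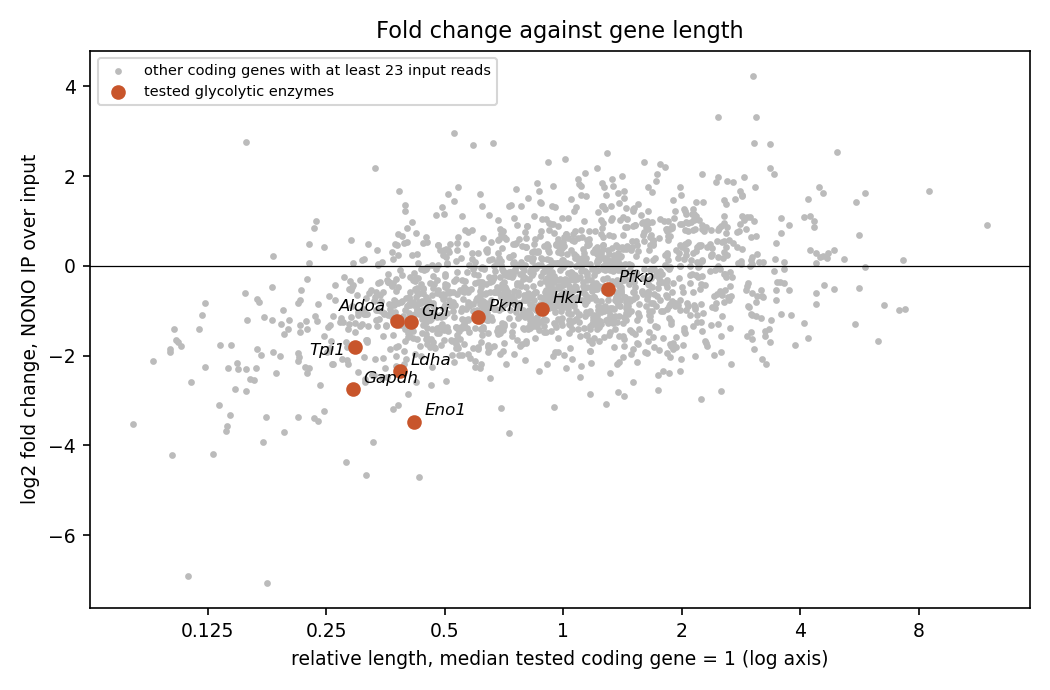
Log2 fold change of NONO IP over input (vertical) against relative gene length (horizontal, log axis, median tested coding gene = 1), with grey points for 1729 other coding genes with at least 23 input reads and orange points for the 9 tested glycolytic enzymes. The grey cloud rises with length; Gapdh, Ldha and Eno1 lie in its lower part at short lengths, and Aldoa, Gpi, Pkm, Hk1 and Pfkp within it.

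Each gene was therefore set beside the other tested coding genes within 2-fold of its input count and within 2-fold of its length. For each of the 9 tested members the log2 fold change was below the median of those genes, with differences from −0.37 (Aldoa) to −2.59 (Eno1) and a median difference of −0.77. For Pgk1, in the fit with no count filter, the difference was −3.67. Gapdh had 160 such genes, with a median of −1.04 and 73.8% called lower, and 6 of the 160 had a lower value than Gapdh. Of the 192 genes like Ldha (median −0.97), 13 were lower than Ldha, and of the 422 genes like Eno1 (median −0.88), 2 were lower than Eno1.

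Gpi, Aldoa, Pkm and Hk1 lay nearer to their like genes. Gpi, at −1.26, stood beside a median of −0.83 over 486 genes, of which 51.6% were called lower and 142 had a lower value. Aldoa stood beside a median of −0.87 over 276 genes, with 61.2% called lower and 83 below it. For Pkm the median was −0.71 over 478 genes, with 50.8% called lower and 134 below it, and for Hk1 it was −0.48 over 784 genes, with 36.7% called lower and 226 below it. These 4 values lay within the quartiles of their like genes. Tpi1 lay in between, with 51 of 401 like genes below it (median −0.58, 35.9% called lower).

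The filter mattered most for Pfkp, whose 1007 tested like genes had a median of 0.27. With no count filter, the 1648 genes like Pfkp had a median of 0.05 beside −0.29 for Pfkp itself, so its difference shrank from −0.77 to −0.34. In the same unfiltered fit, 5 of the 1049 genes like Pgk1 had a lower value than Pgk1, and their median was −0.52. Without Input replicate 1 the median difference over the members was −0.49 in place of −0.77.

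**Figure D3:**
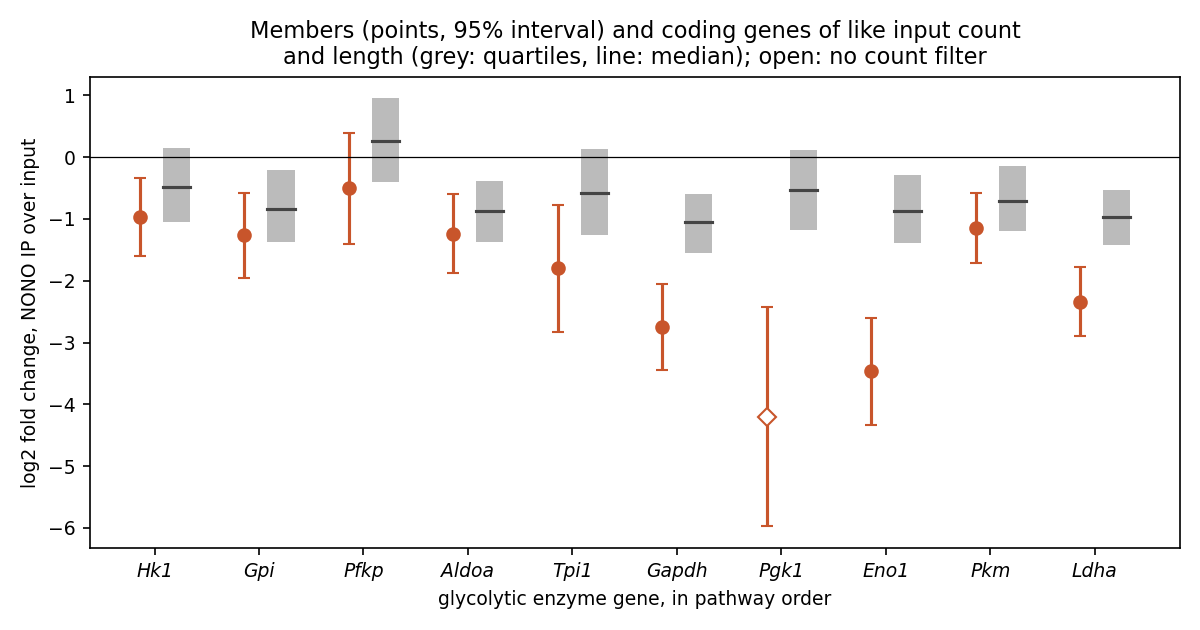
Log2 fold change of NONO IP over input for each glycolytic enzyme gene (orange points with 95% intervals; the open diamond is Pgk1, from the fit with no count filter), beside the median (line) and quartiles (grey) of coding genes within 2-fold of its input count and length. The intervals of Gapdh, Eno1, Ldha and Pgk1 lie below the grey boxes, and the points of Hk1, Gpi, Aldoa and Pkm lie inside theirs.

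An offset for length was also put into the same model. With it, 5 of the 9 tested genes were still called lower: Eno1 (−2.87, edgeR adjusted p = 2.80e-05), Gapdh (−1.79, adjusted p = 0.000348), Ldha (−1.67, adjusted p = 6.93e-05), Hk1 (−0.96, adjusted p = 0.0141) and Pkm (−0.83, adjusted p = 0.0183). The calls of Tpi1 (−0.87, adjusted p = 0.158), Gpi (−0.64, adjusted p = 0.113) and Aldoa (−0.55, adjusted p = 0.142) ended. With the offset 22.6% of all genes tested were called lower. Among the 1729 other coding genes with at least 23 input reads the share was 35.7%, with a median log2 fold change of −0.42. By length class, from shortest to longest, their medians under the offset were −0.29, −0.42, −0.46 and −0.56. The offset, fitted over all genes tested, thus turned their length trend around and left the shortest class least low. Hk1, whose length is near the median, changed least under the offset.

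Processed pseudogenes are a known feature of this pathway's genes, and reads that match a gene and its copies can be lost or split in counting. RefSeq's genes of assembly GRCr8 include 79 pseudogenes named after Gapdh, 30 each after Eno1 and Ldha, 19 after Pkm, 9 after Aldoa, 8 after Pgk1, 3 after Tpi1 and none after Hk1, Gpi and Pfkp. None of these 178 named copies is among the listed genes. The members with the most named copies, Gapdh, Eno1 and Ldha, are also the 3 with the largest tested falls (Spearman rho −0.77 over 9 genes, which share the 4 libraries). Pgk1, left out of this correlation, had 8 named copies and a fitted log2 fold change of −4.20 with no count filter. Pkm, with 19 named copies, changed by −1.15. The part of shared reads in the fold changes was not tested. A further 5 listed genes described as similar to Gapdh, Ldha, Pkm or Aldoa had between 1 and 3 reads each over all 4 libraries.

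Other isozymes and steps of glycolysis were mostly too low to test. Of 20 listed, 11 were in the table and 4 were tested, of which 3 fell, where 26.9% of all genes tested and 42.7% of well sampled coding genes were called lower. Hk2, the insulin-regulated hexokinase, counted 14 and 18 reads against 9 and 8, and fell (log2 fold change −1.48, SE 0.40, edgeR adjusted p = 0.00482); it passed the count filter through its input reads. Pfkl, the liver phosphofructokinase, changed by −1.13 (SE 0.33, adjusted p = 0.00785) and the mutase gene Pgam1 by −1.07 (SE 0.33, adjusted p = 0.0103). Pfkl was the highest phosphofructokinase per length in the inputs, at 21.2 ± 3.73 RPKM against 3.97 ± 0.792 for Pfkp and 2.05 ± 1.71 for the muscle gene Pfkm.

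Eno2, the enolase known from neurons, was the 1 tested isozyme that did not pass, and it was named after its values were seen. Its reads numbered 9 and 8 against 16 and 13 (log2 fold change 0.18, SE 0.41, edgeR adjusted p = 0.737). Per length Eno1 exceeded Eno2 in the inputs, at 39.7 ± 5.44 against 9.09 ± 0.523 RPKM, whereas in the NONO IP Eno1 was below Eno2, at 2.20 ± 0.156 against 6.51 ± 0.509 RPKM (SD, n = 2). The 2 genes thus changed places in both NONO IP libraries. Ldhb, the heart-type lactate dehydrogenase, was too low to test, with 7 and 3 reads against 3 and 4.

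Genes around the pathway were mostly too low to test, and those tested fell or did not pass, with 1 exception. Bsg, basigin, the chaperone of the lactate transporters, was the best sampled, and fell, with 104 and 77 reads against 62 and 58 (−1.18, SE 0.18, edgeR adjusted p = 3.80e-05). The other tested transport gene, the glucose transporter Slc2a1, had 13 and 9 reads against 18 and 7 and did not pass (−0.40, adjusted p = 0.472). Of 3 pentose phosphate genes tested, 1 fell, the phosphogluconate dehydrogenase gene Pgd (−1.39, SE 0.36, adjusted p = 0.00322). Pgd, with 26 and 23 reads against 19 and 9, passed the count filter through its input reads. Over all genes tested, the share called lower was 26.9%. All 3 tested genes of gluconeogenesis and the side branches fell, namely Pck2 (−1.06), Phgdh of serine synthesis (−0.97) and Gfpt1 of hexosamine synthesis (−1.01). Pck2 and Phgdh belong to the shortest length class, in which 64.5% of well sampled coding genes were called lower. For Gfpt1, in the class between 1 and 2, this share was 35.7%. Sdha, of succinate dehydrogenase in the tricarboxylic acid cycle, fell as well (−1.69, SE 0.49, adjusted p = 0.00687), but passed the count filter through its input reads. With the length offset, the calls of Bsg (−0.39), Pgd (−0.84), Pck2 (−0.51), Phgdh (−0.33), Sdha (−1.18), Pfkl (−0.81) and Pgam1 (−0.37) ended, and those of Hk2 (−1.33) and Gfpt1 (−1.11) held.

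Regulators of the pathway were a separate list. Of 23 listed, 22 were in the table and 4 were tested, of which 1 rose and none fell (median log2 fold change 0.31). Egln2, a prolyl hydroxylase that marks the hypoxia-inducible factors for destruction, rose, with 16 and 10 reads against 54 and 45 (1.34, SE 0.30, edgeR adjusted p = 0.00125), and over all genes tested 29.8% were called higher. Egln1 (0.09, adjusted p = 0.862), the hypoxia factor gene Epas1 (−0.69, adjusted p = 0.134) and Mlxip, a glucose-sensing transcription factor (0.53, adjusted p = 0.312), did not pass. Hif1a and Myc, transcription factors known to drive glycolytic genes, had 5 and 5 against 7 and 7 reads and 6 and 5 against 7 and 5 reads, too few to test. No glycogen gene had enough reads for the test.

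**Figure D4:**
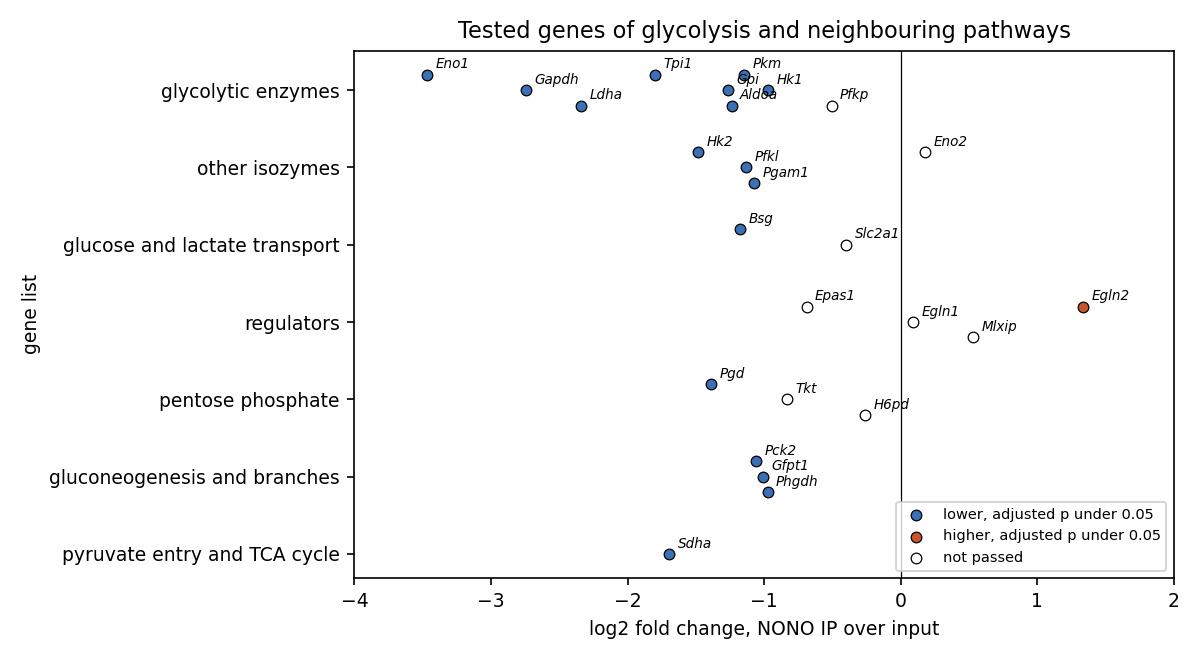
Log2 fold change of NONO IP over input (horizontal) of tested genes of glycolysis and the pathways around it, by list (vertical; blue lower and orange higher at an adjusted p under 0.05, open not passed). Of the 4 tested regulators none fell and Egln2 rose, and 8 of the 9 tested glycolytic enzymes fell. Over all genes tested 26.9% were called lower and 29.8% higher.

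Among 415 well sampled coding genes with a mean of at least 50 counts, those most like the glycolytic genes in pattern were Nid1, Ptk7, Ccdc80, Hspg2 and Myl12a. Likeness was the Euclidean distance over the 4 libraries between centred log2 CPM and the median centred profile of the 9 tested members, and it ran from 0.0974 for Nid1 to 0.167 for Myl12a. Nid1, the basement membrane protein nidogen 1, counted 469 and 405 input reads against 226 and 266 (log2 fold change −1.41). The other 4 changed by between −1.33 (Ccdc80) and −1.48 (Hspg2). They range from a relative length of 0.253 for the myosin light chain gene Myl12a to 3.002 for Hspg2, the proteoglycan perlecan.

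The direction was the same under every alternative: all 146 values of the 10 genes over the alternatives were negative. The alternatives reuse the same libraries, in which both NONO IP values lay below both inputs in TMM-scaled CPM for all 10 genes. Their shared sign is therefore not separate support. Gapdh, Eno1, Pkm and Ldha were called lower in each alternative in which they were tested. Scaling by library totals moved the median of all genes tested from 0.02 to 0.45, and log2(RPKM + 1) moved it to −0.61. Relative to that median the 9 tested members lay at −1.29 with TMM scaling and with library totals, and at −0.92 with the length offset. On the log2(RPKM + 1) scale, which includes Pgk1, the 10 members lay at −1.48.

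**Figure D5:**
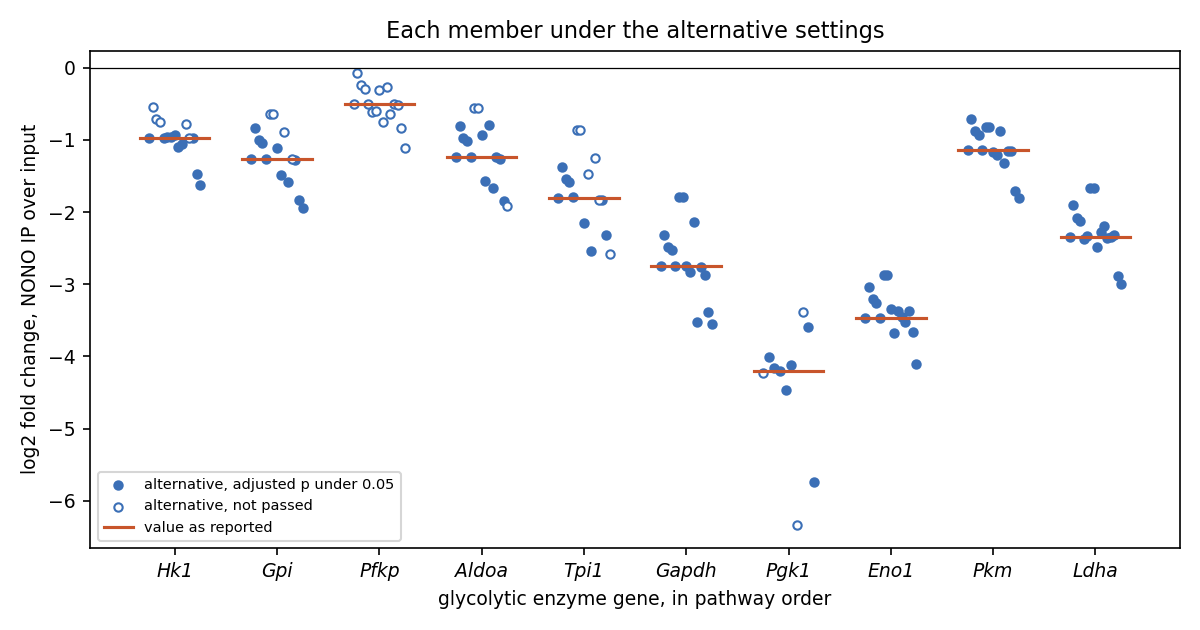
Log2 fold change of NONO IP over input of each glycolytic enzyme gene under the alternative settings (blue points, filled where the adjusted p was under 0.05, open where it was not) beside the value as reported (orange line). All points lie below 0; every point of Gapdh, Eno1, Pkm and Ldha is filled and every point of Pfkp is open.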

How the data were processed

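RNA from 2 input and 2 NONO IP libraries was analysed as deposited by the authors, in whole read counts per gene and in RPKM (reads scaled by gene length and a library total). Per the labels' protocols, polyadenylated RNA was captured and a stranded kit used; HISAT2, HOMER and the build mRatBN7.2 are named, without versions or roles, per the submitters' processing notes. Not given in the sources used here: the counter, its strand setting and its handling of multiply placed reads. Groups came from the titles. Counts were tested with edgeR 4.0.16 (R 4.3.3; quasi-likelihood test, TMM, filterByExpr, Benjamini-Hochberg over 2920 genes, threshold 0.05); SE is the fold change over the root of F. Intervals are 95%. Relative library totals, from count/RPKM in 461 genes with at least 30 counts, gave relative gene lengths. Chi-square per degree of freedom between replicates was 1.12 for inputs and 1.42 for NONO IP. Alternatives were other scalings, filters, DESeq2 1.42.0, limma 3.58.1 (voom; log2(RPKM + 1) and log2(RPKM + 0.1) with RPKM of at least 1 in 2 libraries), a replicate block, a loess length offset (span 0.5), each library left out, and 1.5- and 3-fold windows for like genes. The test was checked on simulated data. Members and lists were chosen with earlier results of these data known. All members are named, with up to 4 passing genes per other list, those lists' genes averaging 50 counts or more, and the 5 genes nearest in pattern; others are named after their values were seen. RefSeq symbols (GRCr8) matched all 10 members. A gene of the lists is not reported here.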

Additional observations from a re-analysis of the deposited data

How the results depend on the processing

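Of the 9 tested members, 5 were called lower with the length offset, without and with the replicate block, and 5 by the DESeq2 Wald test, where Hk1, Gpi and Tpi1 did not pass. With at least 50 counts in 2 libraries only Ldha was tested, so 1 member was called, the median was −2.38 and the median difference from like genes −1.49. The median of the members was −0.83 with library totals, −0.87 with the length offset and −0.86 with that offset and the block, −2.09 and −2.26 on the log2(RPKM + 1) and log2(RPKM + 0.1) scales, and between −1.63 and −1.17 with 1 library left out. The median difference from like genes lay between −0.94 and −0.49 with 1 library left out. Without a NONO IP library, and on the RPKM scales, Pgk1 was included, so those medians are over 10 members. Over all genes, calls lower numbered 466 with library totals, 247 with at least 50 counts, 423 by DESeq2 and 1425 on the log2(RPKM + 1) scale, against 786. Calls higher numbered 254 with at least 50 counts, 453 by DESeq2, and 393 and 348 on the RPKM scales, against 871. The share of calls that were higher was 52.6% with TMM, 71.9% with library totals, 65.0% with protein-coding totals, 64.5% with no filter and 21.6% and 23.3% on the RPKM scales.

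Replicate numbers in the titles were not taken as pairs in the main fit. Deviations of same-numbered libraries correlated at 0.0508 over tested genes. Replicates differed by little more than counting noise (chi-square per degree of freedom 1.12 and 1.42), so this value cannot show whether samples were paired. With the replicate block 8 members were called lower, as without it, and 806 genes were lower and 870 higher. Of 146 values of single members under the alternatives, 125 kept their side of the threshold and 21 lost the call. With 1 library left out, the lone library of its group is assumed to vary like the other group. At 0 to 60 reads per gene and library, depth limits what Pgk1, Pfkp and Tpi1 can show, and how precisely the NONO IP level of Eno1 is known.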
